A study of Mus musculus with 4 samples.

Results

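Long methylated sites, those spanning more than 600 bases, made up a small share of the m6A site lists of newborn mouse epidermis. They were chosen by their measured length, which is therefore not a finding here. Of 14284 sites in the 2 deposited lists, 480 were longer than 600 bases. List 2 held 264 of them among 8246 sites (3.20%), and list 1 held 216 among 6038 sites (3.58%). These sites covered 13.5% of all listed bases in list 2 and 14.3% in list 1. They lay in 240 genes of list 2 and 194 genes of list 1. In all, 372 genes had a long site in at least 1 list, and 62 genes had one in both.

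The libraries came from keratinocytes of the epidermis of control mice, taken at postnatal day 0 (P0). Every library had the genotype K14Cre, Mettl14 F/+, so the animals carried Cre under the keratin 14 promoter, which is active in basal keratinocytes, together with 1 Mettl14 allele that Cre can remove. There were 4 libraries, an IP and an input for replicate numbers 1 and 2, and no other genotype is analysed here. The labels do not say whether the replicates were separate animals, or whether animals were pooled. They do not tie list 2 or list 1 to a replicate number either. MeRIP-seq recovers RNA fragments with an antibody against m6A and reports a site where the IP exceeds the input. The lists give 1 fold enrichment per site and no value per library, so read depth and the error of a single fold are unknown. Sites are not replicates, and no test was run. Shares are given with 95% Wilson intervals over sites, which cover counting error only.

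N6-methyladenosine is the most common internal modification of eukaryotic mRNA. A writer complex built around METTL3 and METTL14 places it at adenosines within a GGAC core, and reader proteins of the YTH family bind it and direct the decay, export or translation of the transcript. Methylated adenosines gather in long internal exons and around stop codons.

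The deposited lists show enriched sites and not expression, so a gene with no site may still be expressed. Of 6 keratinocyte markers, Trp63 and Dsp had a site in list 2, and Krt5, Trp63 and Dsp had one in list 1. Krt14, Krt1 and Krt10 had none in either list. Markers of other skin cells also had sites. In list 2, 3 of 6 fibroblast, 4 of 5 melanocyte and 3 of 4 endothelial markers had a site, and in list 1, 5 of 6, 3 of 5 and 2 of 4 had one. Dsp was the only keratinocyte marker with a long site, and Mitf, a transcription factor of melanocytes, was the only other marker with one, in list 2. The part of other cell types in the long sites was not tested.

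Sequence is shown for the long site of 2010111I01Rik, because it was the only long site in either list that held annotated miRNA hairpins, and both lists had it with nearly the same ends. The site ran over chr13:63300350-63301451 in list 2 (1102 bases) and chr13:63300352-63301452 in list 1 (1101 bases). All coordinates are on GRCm38, counted from 1. It contained the whole hairpins of Mir23b, Mir27b and Mir24-1 on the plus strand and of Mir3074-1 on the minus strand, and it also lay within the annotated span of Fancc, a gene of the Fanconi anaemia DNA repair pathway. Mature miRNAs pair with target mRNAs mainly through their seed. The mature sequences below are from RefSeq (GRCm38.p6), written from the 5′ to the 3′ end, with the seed at bases 2 to 8 in capitals.
mmu-miR-23b-5p: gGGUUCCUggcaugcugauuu
mmu-miR-27b-5p: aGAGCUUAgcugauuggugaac
mmu-miR-27b-3p: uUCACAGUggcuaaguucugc
mmu-miR-24-1-5p: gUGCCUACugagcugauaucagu
mmu-miR-24-3p: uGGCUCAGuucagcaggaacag
mmu-miR-3074-5p: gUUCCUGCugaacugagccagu
No pair of the sequences shown shared a seed. For Mir23b and Mir3074-1 only a 5p sequence is shown, and other mature sequences were not compared. The hairpin nearest to a site edge was Mir23b, 134 bases inside it in list 2 and 132 bases in list 1. The site was enriched 25.47-fold in list 2 and 30.57-fold in list 1. The lists thus gave it similar strength. The -10 log10 p was 2949.03 in list 2 and 2834.64 in list 1. Among sites of 600 bases or less, 13 of 7982 in list 2 and 11 of 5822 in list 1 overlapped a hairpin.

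Some long sites reached a gene start. RefSeq start windows, which run from 250 bases before to 50 bases after a gene's start, shared at least 40 bases with a long site in 3 cases in each list. Sites of 600 bases or less did so with 356 windows in list 2 and 314 in list 1. The 2 windows below are those over 200 bases that lay in a long site of their own gene, and they are shown because they differ in the methylation core motif. They were searched on the transcript strand for the core GGAC followed by a T, an A or a C, and the 5 letters of a match are in capitals. Setd1a encodes a histone methyltransferase, and Zcchc14 a CCHC zinc finger protein. Only the stretch that lay inside the site is printed, from RefSeq (GRCm38.p6), chr7:127777139-127777347 on the plus strand for Setd1a and chr8:121651938-121652183 on the minus strand for Zcchc14.
Setd1a: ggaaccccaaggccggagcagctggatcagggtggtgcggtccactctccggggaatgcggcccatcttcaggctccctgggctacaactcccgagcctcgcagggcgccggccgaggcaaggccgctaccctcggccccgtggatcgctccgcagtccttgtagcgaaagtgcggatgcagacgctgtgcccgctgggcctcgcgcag
Zcchc14: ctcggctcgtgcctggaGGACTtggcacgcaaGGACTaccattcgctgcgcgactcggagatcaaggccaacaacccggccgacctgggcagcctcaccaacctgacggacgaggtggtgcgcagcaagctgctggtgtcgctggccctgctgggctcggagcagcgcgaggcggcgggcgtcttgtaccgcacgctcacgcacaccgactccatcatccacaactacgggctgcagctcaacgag
The Setd1a stretch held no match on the transcript strand and 2 on the opposite strand, and the Zcchc14 stretch held 2 on the transcript strand. At least 1 match on the transcript strand was found in 60.2% of all 32851 windows of 300 bases, and a match on either strand in 83.9%. The Setd1a site, in list 2, had a fold enrichment of 28.76 over 678 bases. The Zcchc14 site, in list 1, had 74.66 over 730 bases. A match is a description of the letters and does not mark a methylated base.

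Length among the members was skewed towards the threshold. Sites of 601 to 800 bases made up 155 of the 264 long sites of list 2 (58.7%) and 139 of the 216 of list 1 (64.4%). A further 50 sites in list 2 and 41 in list 1 were over 1000 bases, and 6 and 5 were over 2000 bases. Just above the threshold, list 2 had Galnt1 (604 bases, fold enrichment 2.31), Ash1l (606 bases, 313.11) and Zfp644 (606 bases, 84.01). List 1 had Rb1cc1 (603 bases, 5.64), Nsd1 (603 bases, 35.28) and Zic1 (604 bases, 6.38) there. Just below it, list 2 had Prr14l (600 bases, 169.85), Raph1 (600 bases, 32.73) and Kctd6 (599 bases, 6.92). In list 1 these were Rdx (599 bases, 3.95), Hspa5 (597 bases, 9.20) and Tchh (596 bases, 15.06). Fold enrichment on both sides of the threshold thus ran from 2.31 to 313.11 above and from 3.95 to 169.85 below.

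Several of the longest sites lay in genes for giant structural proteins of the epithelial cytoskeleton. Ahnak encodes a very large scaffold protein at the cell cortex, Dsp encodes desmoplakin, which ties desmosomes to keratin filaments, and Eppk1 encodes epiplakin, a keratin-binding member of the plakin family. In list 2 the longest site was in Ahnak at chr19:9007948-9012907 (4960 bases, fold enrichment 15.24). The next was in Dst, the gene for the plakin BPAG1 of hemidesmosomes, at chr1:34177796-34180498 (2703 bases, 14.08). Eppk1 at chr15:76110212-76112506 (668.55) and Dsp at chr13:38191361-38193655 (108.66) each had a site of 2295 bases. The fifth, also in Eppk1, at chr15:76102276-76104563 (2288 bases), had 7.37, so sites of nearly the same length in 1 gene differed widely in fold.

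In list 1 the longest site was in Dsp at chr13:38194696-38198188 (3493 bases, fold enrichment 11.43), and no site of list 2 overlapped it. Ahnak followed at chr19:9008969-9012032 (3064 bases, 21.30). Then came Mki67, the gene of the proliferation marker Ki-67, at chr7:135698612-135701058 (2447 bases, 17.80). The remaining sites among the 8 longest of list 1 were in Dsp, Ahnak (3 sites) and Ddx6, which encodes an RNA helicase of processing bodies. The remaining ones of list 2 were in Mki67, Ankrd11, a chromatin regulator, and Son, a splicing cofactor of nuclear speckles. Son had a site of 1801 bases at chr16:91658780-91660580 with a fold enrichment of 14.96 and no overlapping site in list 1.

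Several genes carried more than 1 long site. In list 2, 18 genes had 2 or more long sites, and in list 1, 15 genes did. Eppk1 had 4 sites in list 2, all long, and 5 in list 1, of which 4 were long. Its long sites held 6989 bases in list 2 and 3405 bases in list 1, and 3 of the 4 overlapped a site of the other list in each. Ahnak had 3 long sites among 7 in list 2 (7336 bases) and 5 among 9 in list 1 (10542 bases). All 3 in list 2 and 3 of the 5 in list 1 overlapped a site of the other list, and the remaining 2, at chr19:9013457-9015000 and chr19:9015748-9017730, had none.

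Fold enrichment differed along a single gene. The 3 long sites of Ahnak in list 2 had fold enrichments of 103.45, 28.97 and 15.24 in order of position. In list 1 the 5 sites had 46.28, 41.53, 21.30, 18.10 and 11.21 in the same order, lower at each next long site along the plus strand in both lists. The shorter sites around them did not follow that order, since in list 2 the shorter sites before the first long one had 24.04 and 59.56, and those after it 9.13 and 3.35. Mki67 had 3 long sites in list 2, at 6.60- to 25.60-fold, and 2 in list 1, at 3.86- and 17.80-fold. Other genes with several long sites included Fat1, an atypical cadherin (2 in list 2 and 3 in list 1), Frem2, an extracellular matrix protein of the epidermal basement membrane (3 and 2), and Prrc2c, an RNA-binding protein (2 and 2).

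**Figure D1:**
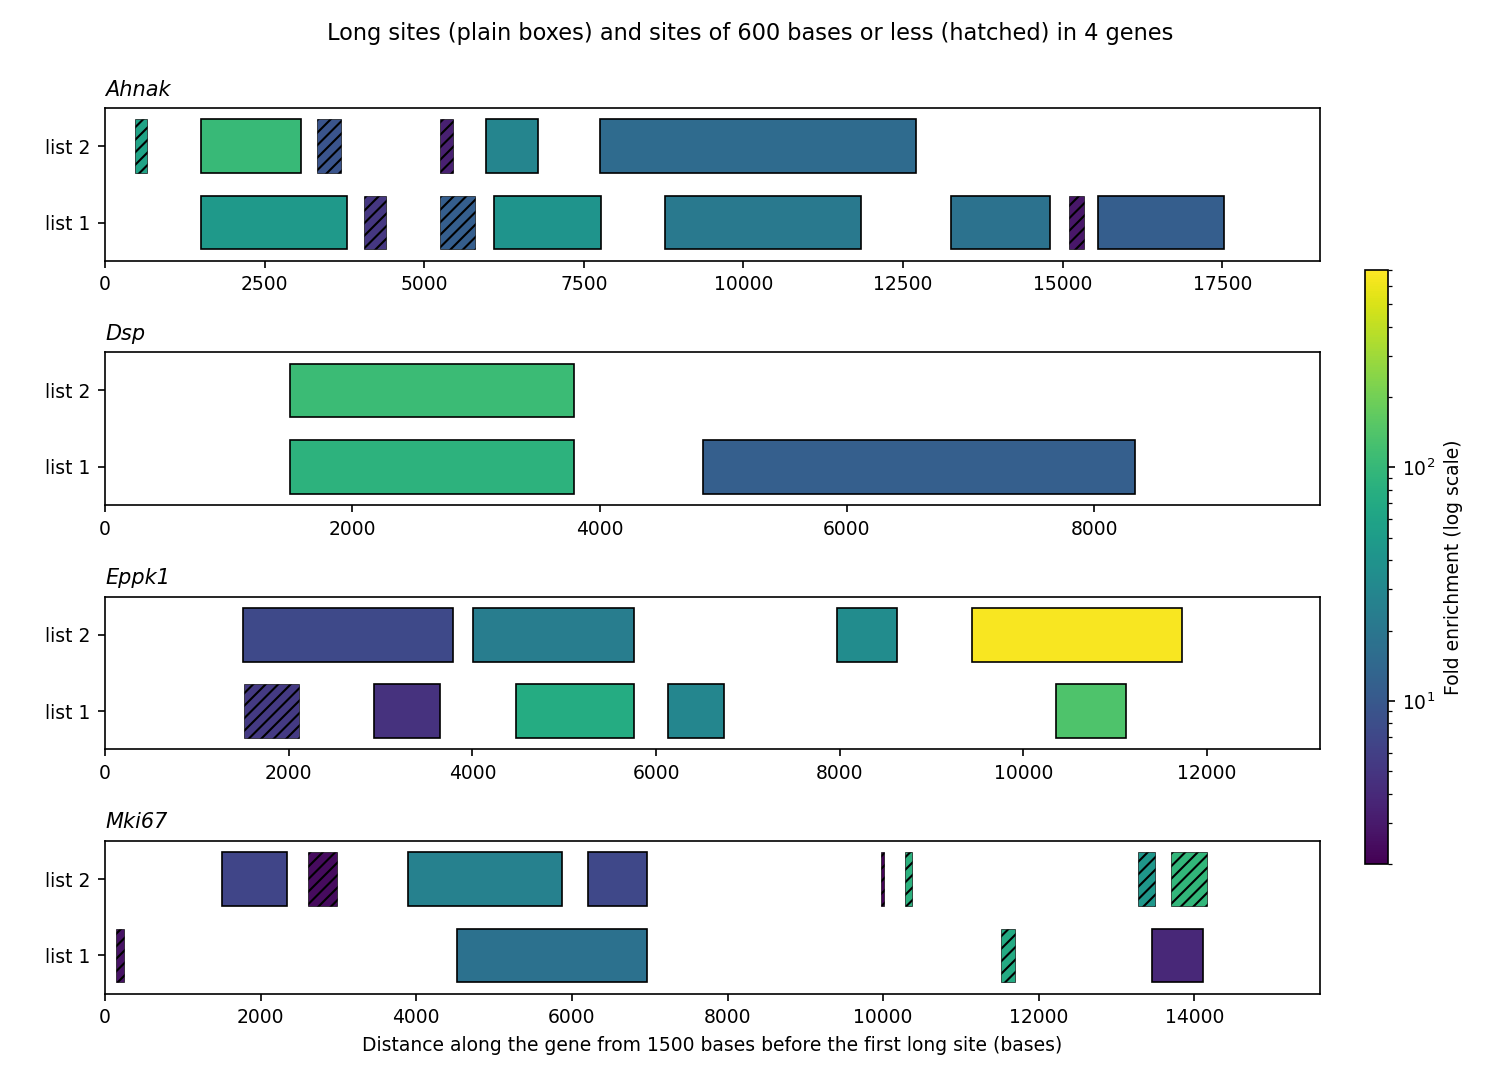
Sites of list 2 (upper row) and list 1 (lower row) in Ahnak, Dsp, Eppk1 and Mki67 around their long sites, by distance in bases; plain boxes are longer than 600 bases, hatched boxes are shorter, and colour gives fold enrichment on a log scale. Dsp has 1 box of 2295 bases at the same place in both rows and a box of 3493 bases in list 1 with no box above it.

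Long sites overlapped the other list more often than shorter ones. In list 2, 135 of 264 long sites (51.1%, interval 45.1% to 57.1%) shared at least 1 base with a site of list 1, against 26.0% (25.0% to 27.0%) of sites of 600 bases or less. In list 1, 130 of 216 long sites (60.2%, 53.5% to 66.5%) shared a base with list 2, against 35.8% (34.6% to 37.1%) of the shorter sites. A longer interval has more bases that another can touch, so 2 measures less tied to length were also taken. The midpoint lay within a site of the other list for 33.7% (28.3% to 39.6%) of long and 24.2% of shorter sites in list 2, and for 42.6% (36.2% to 49.3%) and 33.4% in list 1. With at least 50% of both sites shared, the figures were 25.0% of long and 22.4% of shorter sites in list 2, and 34.7% and 30.6% in list 1. For this strictest measure, the interval of the long sites (20.2% to 30.6% in list 2, 28.7% to 41.3% in list 1) held the share of the shorter ones in both lists.

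Overlap by at least 1 base did not go one way with length. In list 2 it was 28.2% (25.9% to 30.7%) for sites of 201 to 300 bases and lower, 22.8% (20.7% to 25.1%), for 301 to 400. In list 1 it was 37.5% and 30.8% for these classes. Above 400 bases the shares were larger. In list 2 they were 36.6% for sites of 401 to 500 bases, 38.5% for sites of 501 to 600 bases, 45.2% for 601 to 800, 49.2% for 801 to 1000 and 72.0% for sites over 1000 bases. In list 1 they were 45.1%, 47.5%, 59.0%, 63.9% and 61.0% for the same classes. The intervals of the classes next to 600 bases on either side overlapped in both lists.

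**Figure D2:**
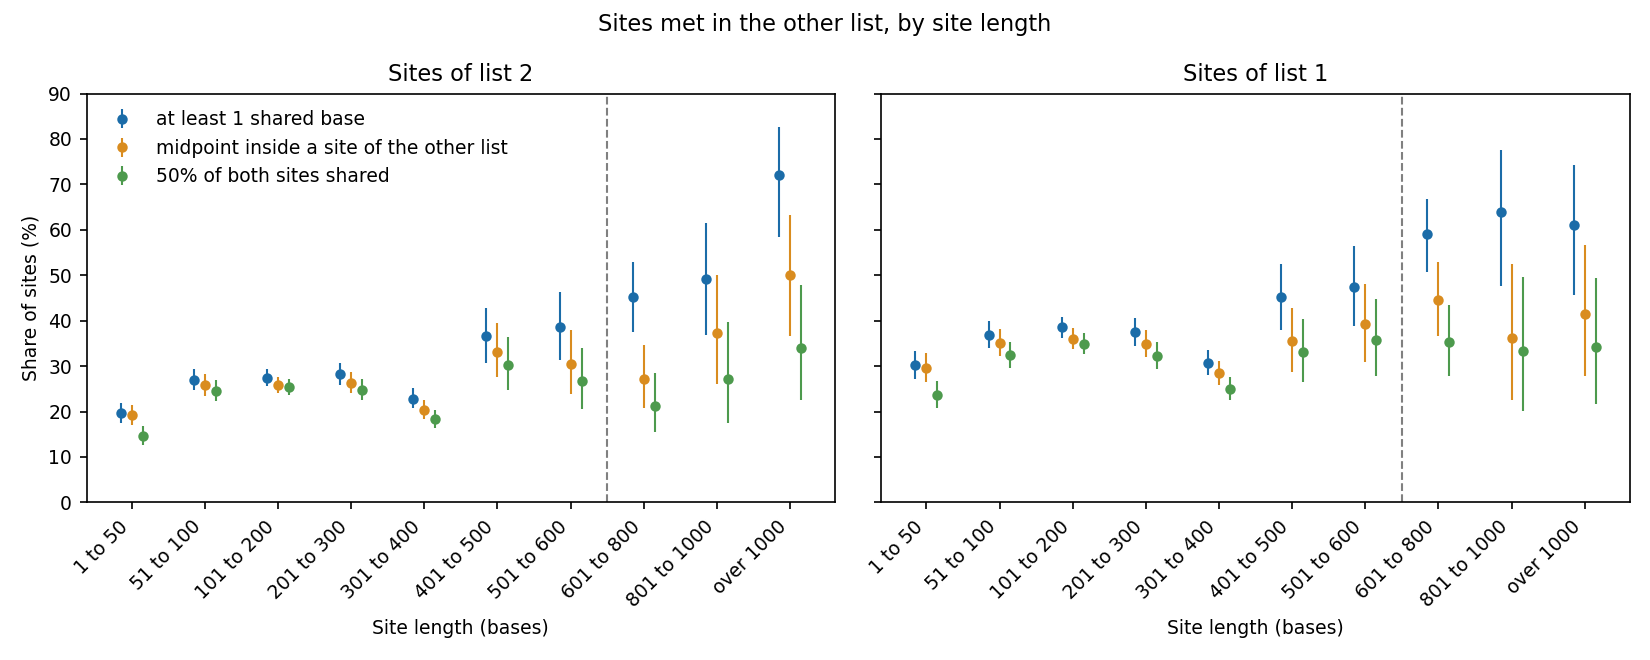
Share of sites (%) met in the other list by site length in bases, for sites of list 2 (left) and list 1 (right); points are shares, bars are 95% Wilson intervals over sites, colours are 3 definitions of a match, and the dashed line marks 600 bases. The share with at least 1 common base reaches 72.0% for list 2 sites over 1000 bases, while the share with 50% of both sites in common is 34.0% there.

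The overlapping long sites rarely had the same ends. Among long sites that overlapped, 2.96% in list 2 and 1.54% in list 1 matched a site of the other list at both start and end. Among overlapping sites of 600 bases or less this was 33.8% in list 2 and 33.6% in list 1. The shorter classes next to the threshold were nearer to the long sites, at 4.94%, 6.90% and 4.84% for 301 to 400, 401 to 500 and 501 to 600 bases in list 2, and 4.64%, 7.59% and 5.26% in list 1. The start alone was the same for 13.3% of overlapping long and 55.6% of overlapping shorter sites in list 2, and for 13.8% and 55.3% in list 1. A median of 58.1% of an overlapped long site's length was covered in list 2, and 62.0% in list 1. Long sites were met by another long site in 67 cases in list 2 and 65 in list 1, and by shorter sites alone in 68 and 65. The Dst site of list 2 overlapped 4 sites of list 1, none of them long.

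Of the long sites with no overlap, 129 in list 2 and 86 in list 1, about as many lay in genes with a site elsewhere in the other list (64 and 42) as in genes with none (65 and 44). The same split was not taken for shorter sites, so it is not read as particular to long sites. At the level of genes, 72.9% of genes with a long site in list 2 had a site in list 1, against 50.6% of other genes with a site. For list 1 these shares were 77.3% and 61.5%. Genes with a long site also had more sites. In list 2, 60.4% of them had 2 or more sites, against 33.1% of other genes, and in list 1, 51.5% against 26.3%. A gene with more sites has more chances to hold a long one, so the choice of genes itself favours this direction. The shares of genes with a site in the other list rest on the same choice. Neither difference is read as a trait of long sites.

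Long sites without an overlap had a lower median fold enrichment than overlapping ones, with wide spread in both groups. Their median fold enrichment was 15.77 in list 2 and 15.495 in list 1, against 24.89 and 23.94 for overlapping long sites. Some strong long sites without an overlap still belonged to genes with no site in the other list. In list 2 the strongest in such genes were Gm9797, a predicted gene, at chr10:11609529-11610247 (fold enrichment 179.50), Mdfic, a regulator of transcription, at chr6:15800541-15801212 (164.19), and P2ry1, an ADP receptor, at chr3:61006939-61007719 (134.71). In list 1 they were Dpy19l3, a C-mannosyltransferase, at chr7:35690287-35690908 (710.76), Mfap3l at chr8:60673402-60674061 (241.96) and Flg, the gene of filaggrin in the cornified layer, at chr3:93279381-93280220 (183.10). Next in list 1 were Mars2 at chr1:55238568-55239296 (118.06) and Trpv3, a heat-sensitive channel of keratinocytes, at chr11:73298062-73298688 (90.30). A gene without a listed site is not shown to be unmethylated.

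The median fold enrichment of long sites was higher than that of shorter sites in both lists. In list 2 it was 19.4 for long sites (quartiles 7.72 and 47.2) and 11.6 for sites of 600 bases or less (4.19 and 40.9). In list 1 it was 21.3 (9.17 and 55.2) and 11.2 (4.27 and 44.0). The difference ran through the quartiles and was small only among the highest folds. A fold enrichment of 10 or above was found for 68.6% of long and 53.3% of shorter sites in list 2, and for 73.1% and 52.4% in list 1. A fold enrichment under 4 was found for 6.82% of long and 21.2% of shorter sites in list 2, and for 8.33% and 23.8% in list 1. At 100 or above the shares were 14.0% of long and 12.7% of shorter sites in list 2, and 14.8% and 14.4% in list 1.

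The gap was narrower among sites with higher scores. With only sites of a -10 log10 p of 50 or more, the medians were 23.5 for long and 19.2 for shorter sites in list 2. In list 1 they were 24.8 and 22.1, a ratio of 1.12 in place of 1.90 over all sites. At scores of 3100 and above, where many of the authors' values are tied at 3100, 34.8% of long and 19.5% of shorter sites lay in list 2, and 38.4% and 23.1% in list 1. There the order was turned, with a median of 64.1 for long and 109 for shorter sites in list 2, and of 67.3 and 118 in list 1. Overlap at these scores was 71.7% for long and 32.5% for shorter sites in list 2, and 66.3% and 42.0% in list 1. Below 3100 it was 40.1% for long and 24.4% for shorter sites in list 2, and 56.4% and 34.0% in list 1. The deposited FDR, a percent, was 100% for 31.1% of long and 52.2% of shorter sites in list 2, and for 38.9% and 59.9% in list 1. The lowest FDR among long sites was 59.47% in list 2 and 55.81% in list 1.

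**Figure D3:**
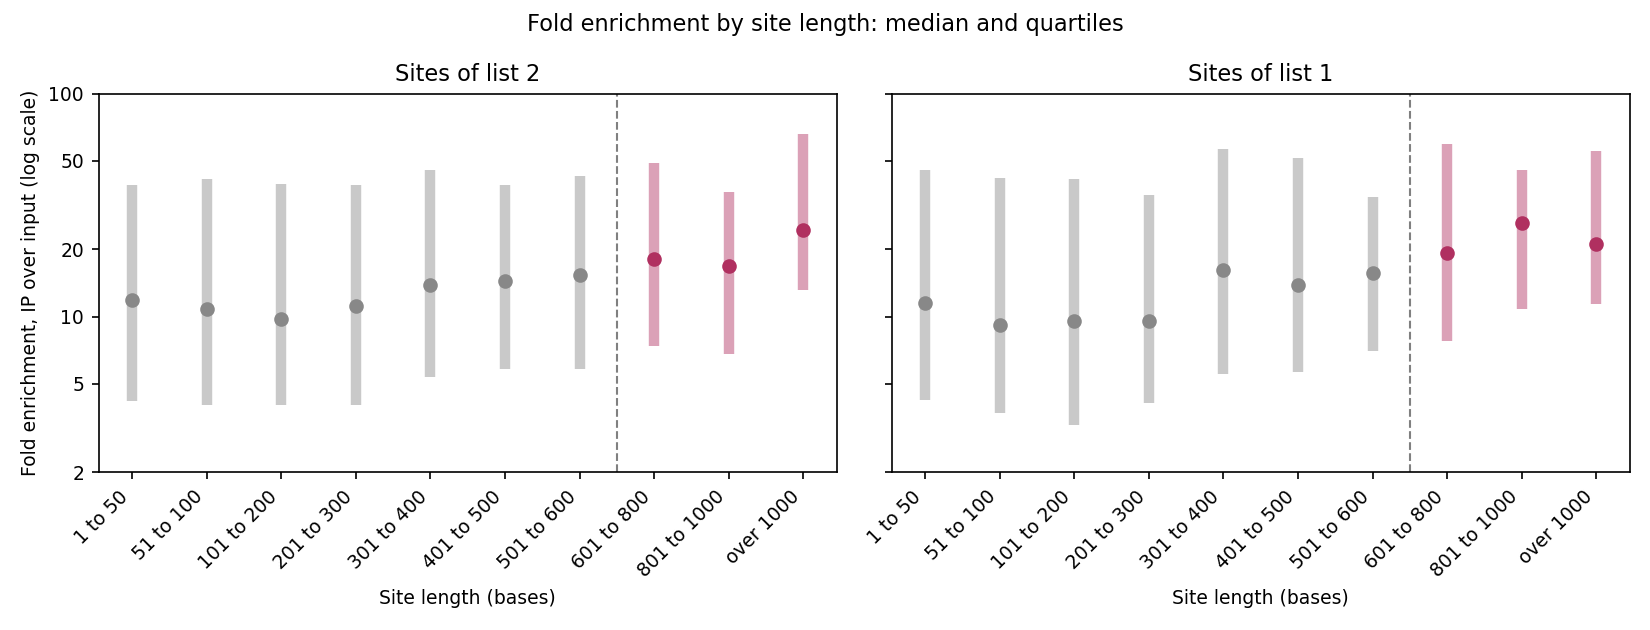
Fold enrichment of IP over input (log scale) by site length in bases for list 2 (left) and list 1 (right); points are medians, bars run from the lower to the upper quartile, and red marks sites longer than 600 bases. Medians of the 3 classes above 600 bases lie between 16.9 and 24.3 in list 2 and between 19.3 and 26.3 in list 1, and the quartiles of all classes overlap.

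The strongest long sites were in genes of varied roles. In list 2 the highest fold enrichments were in Map1b, a microtubule-associated protein, at chr13:99432932-99434203 (1692.05), Flg2, a filaggrin-like protein of the cornified layer, at chr3:93200805-93201576 (1299.59), and Prr14l, a proline-rich protein, at chr5:32829571-32830379 (941.43). In list 1 they were in Vcan, the proteoglycan versican, at chr13:89704393-89705334 (1671.22), Hipk2, a nuclear kinase, at chr6:38818186-38819185 (1636.00), and Pcdh18, a protocadherin, at chr3:49756124-49757210 (746.55). Whether the other list gave the same strength varied between these genes. Flg2 had 1299.59 in list 2 and 1231.25 at the overlapping shorter site in list 1. Hipk2 had 1247.90 at a shorter site in list 2 and 1636.00 at the long site it overlapped in list 1. Map1b had 1692.05 in list 2 but 16.79 at the overlapping long site of list 1, which lay wholly inside it. Prr14l had no overlapping site in list 1.

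Fold enrichment at overlapping long sites varied widely between the lists. Where both sites were long, 64 pairs, the median was 29.0-fold in list 2 and 23.9-fold in list 1, and the median log2 difference, list 2 minus list 1, was 0.10 with quartiles of -1.21 and 1.53. The folds lay within 2-fold of each other in 25 pairs (39.1%, 28.1% to 51.3%) and differed by more than 4-fold in 19 pairs (29.7%). Where 1 of the sites was long, 134 pairs, 41.8% were within 2-fold and 29.9% differed by more than 4-fold. For 2004 pairs with both sites of 600 bases or less, 52.9% were within 2-fold and 24.5% differed by more than 4-fold. The Pearson correlation of log2 fold across pairs was 0.48 with both sites long, 0.39 with 1 long and 0.57 with neither. These correlations run over sites that share their libraries, and several pairs share a gene.

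Some pairs were close in both extent and fold. The Dsp site at chr13:38191361-38193655 was identical in both lists, enriched 108.66-fold in list 2 and 85.65-fold in list 1. Ssb, the gene of the RNA-binding La protein, had 130.80 in list 2 and 137.46 in list 1 at sites with the same start on chromosome 2 (69871122). Ankrd50, an ankyrin repeat protein, had 216.49 in list 2 and 173.99 in list 1, with ends that differed by 10 bases on each side. In these 3 genes the lists differed by less than 2-fold.

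Pairs further apart were as plain. Pcdh18 had nearly the same ends in both lists, 4 and 12 bases apart, and was enriched 175.49-fold in list 2 and 746.55-fold in list 1. Prrc2c had 445.54 in list 2 and 108.33 in list 1 at sites with the same end. Eppk1 had 668.55 in list 2 over 2295 bases, and 137.54 in list 1 over 770 bases that lay inside that site. Spen, a corepressor of Notch signalling, was not among these, as its folds lay within 2-fold of each other (log2 difference -0.88). It had the highest lower fold of any pair long in both lists, 198.90 in list 2 and 366.78 in list 1.

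**Figure D4:**
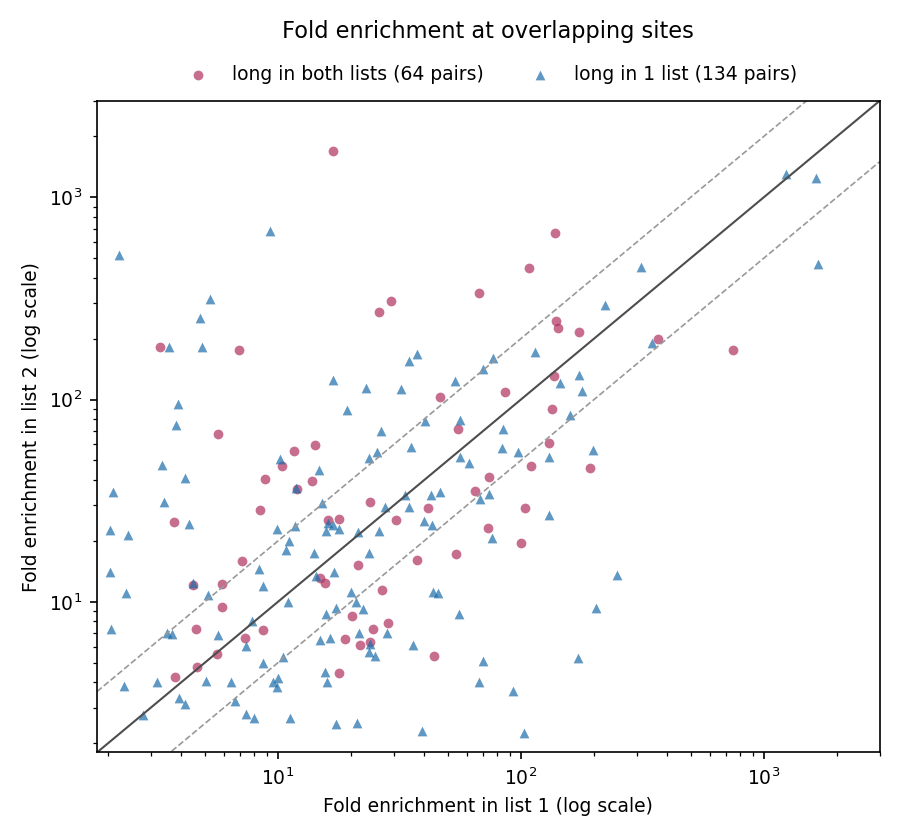
Fold enrichment in list 2 (vertical) against list 1 (horizontal), both on log scales, for 64 overlapping pairs long in both lists (red circles) and 134 pairs long in 1 list (blue triangles); the solid line marks equal folds and the dashed lines a 2-fold difference. 25 of the 64 red circles lie between the dashed lines.

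Among named gene groups, long sites were counted against all genes with a site, of which 4.76% in list 2 and 4.63% in list 1 had a long one. Since the members were chosen by length, nothing is read from that share. Of genes for hemidesmosome and basement membrane proteins, which anchor basal keratinocytes to the dermis, 3 of 20 with a site had a long one in list 2 (Itga6, Plec and Dst) and 2 of 19 in list 1 (Itga6 and Plec). Itga6, the α6 integrin subunit of hemidesmosomes, had a long site in both lists with the same start, chr2:71855854-71857441 in list 2 (1588 bases, fold enrichment 6.31) and chr2:71855854-71856472 in list 1 (619 bases, 24.02). The shorter of these had the higher fold. Col17a1 and Itgb4, the collagen and the integrin partner at the same junction, had only shorter sites in both lists. Plec, the plakin plectin, had 2 long sites in each list, at 14.27- and 9.46-fold in list 2 and 5.88- and 7.64-fold in list 1.

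Junction and linker genes held several of the longest sites. In the desmosome and adherens junction group, 4 of 19 genes with a site had a long one in list 2 and 3 of 16 in list 1. Dsp and Ctnnd1, the gene of p120 catenin, had one in both. The single site of Ctnnb1, β-catenin, in list 2 was long (chr9:120959386-120960402, 1017 bases), at a fold enrichment of 2.79. In the group of giant cytoskeletal linkers, 3 of 16 had a long site in list 2 (Syne2, Ahnak and Eppk1) and 5 of 16 in list 1 (these and Macf1 and Ahnak2). Syne2, a nesprin of the nuclear envelope, had 45.74 in list 2 and 191.90 in list 1 at sites with the same end. Of the large cadherins, 1 of 9 in list 2 (Fat1) and 2 of 6 in list 1 (Fat1 and Celsr1) had one.

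Genes of the methylation machinery itself were among the members. Of the writers, erasers and readers of m6A with a site, 3 of 12 had a long site in list 2 and 4 of 16 in list 1. Rbm15, an RNA-binding adaptor of the writer complex, had 1 site in each list, and it was long in both. It ran over chr3:107330722-107331388 in list 2 (667 bases, fold enrichment 46.97) and chr3:107330291-107331951 in list 1 (1661 bases, 110.32). The others were the writer subunit Virma (40.93) and the reader Igf2bp2 (17.13) in list 2. In list 1 they were the writer subunit Zc3h13 (46.92), the reader Ythdf2 (11.72) and Hnrnpa2b1, an RNA-binding protein (6.24).

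Histone methylation and remodelling genes had 4 of 23 with a long site in list 2 and 4 of 17 in list 1. Nsd1 and Ash1l, histone methyltransferases, and Arid1b, a subunit of the BAF remodelling complex, had one in both. Nsd1 had 1 long site in list 2 (1301 bases, fold enrichment 60.93) and 3 in list 1 (fold enrichments 35.28, 130.92 and 9.91). Ash1l had 3 in list 2 (63.26, 308.39 and 313.11) and 1 in list 1 (29.17). Arid1b was weaker, at 6.64 in list 2 and 7.35 in list 1. Setd2 (120.36, list 2) and Kmt2a (220.93, list 1), histone methyltransferases too, each had a long one in a single list. Both overlapped a shorter site of the other list, at 145.17 in list 1 for Setd2 and 292.47 in list 2 for Kmt2a.

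Of the cornified envelope and filaggrin-type genes, 1 of 9 had one in list 2 (Flg2) and 2 of 10 in list 1 (Flg and Tchh, the gene of trichohyalin of the hair follicle). Krt78 was the only keratin gene of its group with a long site, with 0 of 3 in list 2 and 1 of 6 in list 1. None of the epidermal transcription factors had one, 0 of 11 in list 2 and 0 of 12 in list 1. The same was true of immediate early genes (0 of 8 and 0 of 6), ribosomal protein genes (0 of 5 and 0 of 5), fibroblast markers (0 of 6 and 0 of 7) and endothelial markers (0 of 3 and 0 of 2). With so few genes per group, a count of 0 does not set these groups apart from the background.

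In signalling, 2 of 21 genes of the Notch, Wnt, Hedgehog and TGF-beta pathways had a long site in list 2, Ctnnb1 and the Wnt feedback gene Axin2 (fold enrichment 19.13), and 0 of 22 in list 1. Of growth factor receptors, 1 of 13 in list 2 (Erbb3, 7.35) and 0 of 9 in list 1 had one. Among translation factors it was Prrc2c alone, 1 of 12 in each list. In the melanocyte group, 1 of 5 in list 2 (Mitf, 707 bases, fold enrichment 9.45) and 0 of 3 in list 1 had one.

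Measured from the site's nearer edge, long sites lay closer to an end of their gene than shorter sites in both lists. Such a distance is smaller for a longer site at the same midpoint. By midpoint, a difference beyond the interval was seen in list 2 only. The RefSeq table used gives gene spans on GRCm38 without exons, so exon, intron and UTR positions were not assigned. Strand was available for fewer than 80% of sites, so the nearer end was used whichever it was. The nearer edge of a long site lay within 3000 bases of a gene end in 48.3% (42.2% to 54.3%) of cases in list 2 and 49.3% (42.7% to 56.0%) in list 1. For sites of 600 bases or less the shares were 35.0% in list 2 and 38.5% in list 1. The median distance from the site's edge to the nearer gene end was 3142 bases for long and 6527 bases for shorter sites in list 2. In list 1 it was 3131 and 5395 bases. Relative to the gene span, the midpoints of 44.4% of long (38.5% to 50.5%) and 35.3% of shorter sites lay in the outer 10% at either end in list 2. In list 1 these were 38.0% (31.8% to 44.7%) and 36.9%, so there the interval of the long sites held the share of the shorter ones. The genes' median spans were 39848 bases for long and 50817 bases for shorter sites in list 2, and 50624 and 45991 bases in list 1.

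**Figure D5:**
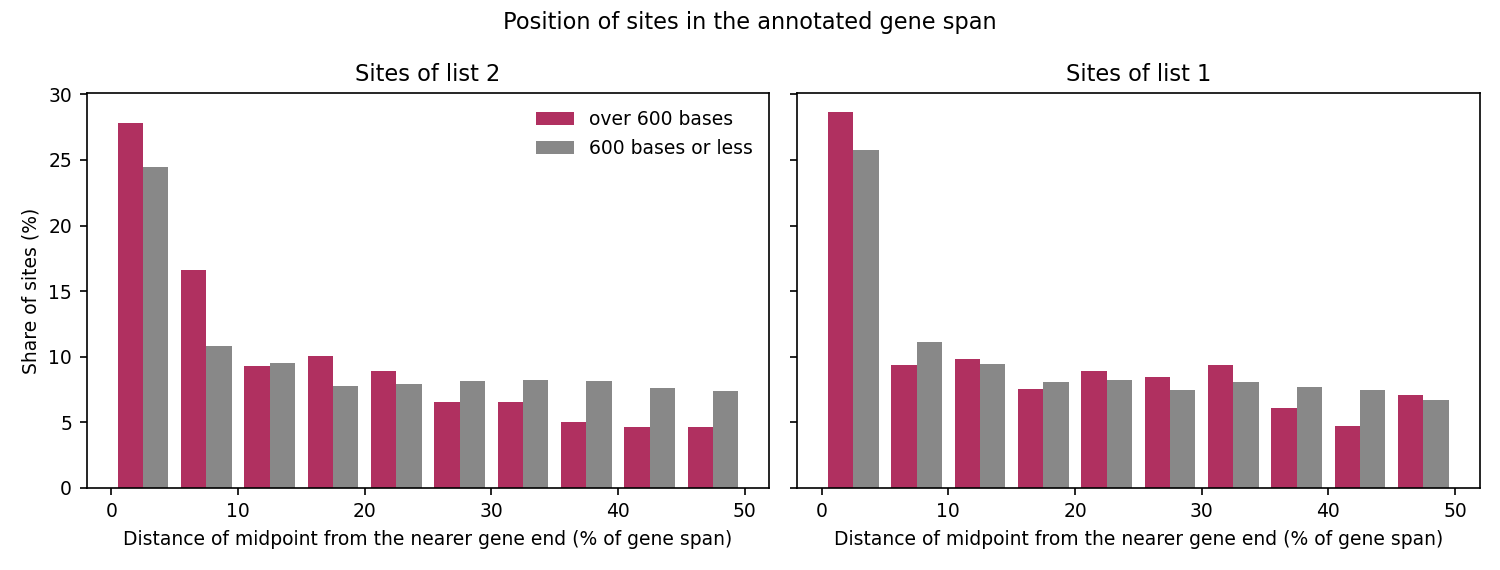
Share of sites (%) by the distance of their midpoint from the nearer end of the annotated gene, in % of the gene span, for list 2 (left) and list 1 (right); red bars are sites longer than 600 bases and grey bars are shorter ones. In list 2 the class from 5% to 10% holds 16.6% of long and 10.8% of shorter sites, and in list 1 it holds 9.39% and 11.1%.

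A few long sites covered most of a small gene. Hist1h1a at chr13:23763668-23764322 in list 2 (655 bases, fold enrichment 252.89) and Hist1h1d at chr13:23555070-23555746 in list 1 (677 bases, 249.02), both linker histone genes, covered 87.9% and 87.2% of the gene. The other genes covered by at least 50% were Gm9797 and the small nucleolar RNA gene Snord88a in list 2, and Calm4 and Capns2 in list 1. The Snord88a site was 830 bases long in a gene span of 72 bases, so most of it lay outside that gene. Of all long sites, 9.85% in list 2 and 6.48% in list 1 touched the span of 2 or more annotated genes, against 6.49% and 6.56% of shorter sites. The lists do not state strand, so for these sites the gene named by the authors is uncertain. One of them, the D830031N03Rik site of list 1 (fold enrichment 485.43), also lay in the span of Macf1. Other such sites named above included those of Ssb in both lists (also in Mettl5), Dst in list 2 (Gm26788) and Ankrd11 (Gm39273). In list 2, Gm21811 and Gm21092 on chromosome 8 each had long sites of 854 bases and of 755 or 756 bases. Whether reads were shared between these 2 genes was not tested, so their sites are uncertain.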

How the data were processed

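MeRIP-seq libraries (IP and input, replicate numbers 1 and 2) of control keratinocytes were summarised by the authors in 2 deposited site lists. The libraries behind each list, the aligner, the filters and the peak caller's version remain not given in the sources used here. Per the submitters' processing notes, the build was GRCm38. Fold enrichment is a ratio of IP to input signal computed by the authors. Scores here are the deposited -10 log10 of the p-value, as that column is named in the headers. A separate deposited column named score is not described here. The FDR is a deposited percent. Per the file headers, lengths and positions count bases. Deposited starts were raised by 1. The lists hold no read counts, so the depth per sample is unknown.

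Sites with a length over 600 bases were selected in each list (Python 3.11.15, pandas 2.3.3, scipy 1.17.1, matplotlib 3.10.9). A site overlapped the other list when at least 1 base was shared on 1 chromosome, strand being ignored. For the pair counts, overlapping sites were joined one to one, the pairs with most shared bases first. The named pairs join each long site of list 1 with the long site of list 2 that shares most bases. Intervals are 95% Wilson intervals over sites, and medians are given with quartiles. No p-value was computed. Gene spans, start windows and miRNAs are from RefSeq tables on GRCm38.p6. Of the long sites, 98.1% in list 2 and 98.6% in list 1 lay in the span of their named gene, and strand was known for 75.0% and 75.5%, so a check by strand is void. All 318 genes of the 17 gene lists were matched, some genes, Ctnnb1 among them, being in more than 1 list. The overlap step was tested on simulated data.

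Named genes are the 8 longest sites and the 8 with the highest fold per list, the 8 pairs with most shared bases and the 8 with the highest lower fold, genes with 2 or more long sites, up to 4 members per gene list, the 3 sites on each side of the threshold, and Col17a1, Itga6 and Itgb4. The first of each kind are described. The strongest sites of genes absent from the other list, the miRNA hairpins, the start windows, sites that cover much of a gene and the copies on chromosome 8 were chosen after their values were seen. The members and gene lists were chosen with earlier results of these data known.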

Additional observations from a re-analysis of the deposited data

How the results depend on the processing

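Of 54 alternative values, 31 stayed within the interval of the value reported and 23 did not. Under each of these alternatives, sites above the length threshold in use exceeded those at or below it in overlap and in median fold enrichment in both lists, although with -10 log10 p of 50 or more the median folds were close. Among sites with -10 log10 p of 3100 or above the order of the medians was turned, at 64.1 for long and 109 for shorter sites in list 2, and 67.3 and 118 in list 1. With at least 50% of both sites shared, overlap was 25.0% of long and 22.4% of shorter sites in list 2, and 34.7% and 30.6% in list 1. In both lists the interval of the long sites held the share of the shorter ones, so no excess is read from that measure. By midpoint, overlap was 33.7% and 24.2% in list 2, and 42.6% and 33.4% in list 1. Among long sites of list 2 it was 59.6% over 800 bases and 44.9% without the 26 genes that have 2 or more long sites, a setting added after the data were seen. With -10 log10 p of 50 or more, 21.1% of shorter sites overlapped in list 2 and 30.3% in list 1, with medians of 19.2-fold in list 2 and 22.1-fold in list 1. The highest fold per gene gave shorter sites medians of 13.7 in list 2 and 13.4 in list 1. Over 800 bases the median of list 1 was 26.0. Genes with a long site made up 7.65% over 500 bases, 2.02% over 800 bases and 5.47% with -10 log10 p of 50 or more in list 2, and 7.21%, 1.67% and 5.52% in list 1. Merging touching sites changed no long site. No paired analysis was possible because the lists hold no value per library. The lists were not tied to replicate numbers, and without read counts the depth that limits each fold is unknown.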

Other observations

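Zinc finger genes and protocadherins, families picked after their values were seen, also had long sites. Of genes whose symbol starts with Zfp, 10 of 111 with a site in list 2 (9.01%) and 9 of 99 in list 1 (9.09%) had a long one, with Zfp422, Zfp445 and Zfp644 in both. Of protocadherin genes (symbols starting with Pcdh), cell adhesion molecules, it was 2 of 16 in list 2 (Pcdh18 and Pcdh9) and 3 of 18 in list 1 (Pcdh10, Pcdh18 and Pcdh20). The long Pcdh9 site of list 2 had a fold enrichment of 520.61 and met a site of 2.21 in list 1. For histone genes it was 1 of 25 in list 2 (4.0%, Hist1h1a) and 1 of 21 in list 1 (4.76%, Hist1h1d). Of all genes with a site, 4.76% in list 2 and 4.63% in list 1 had a long one. The histone shares were near these values, and nothing is read from the share of any of these families.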
